A study of Mus musculus with 2 samples.

Results

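The genes described here are 9 enzymes that reduce peroxides: the peroxiredoxins Prdx1, Prdx2, Prdx4, Prdx5 and Prdx6, the glutathione peroxidases Gpx1, Gpx4 and Gpx8, and the membrane-bound glutathione transferase Mgst3. They were chosen by name with earlier results of these data known, so counts of members called are descriptions. All 9 were listed in both tables of unique molecular identifier (UMI) counts, which had 9127 gene symbols in common. Their counts were summed per library over cells gated by marker genes as endothelial, mural, fibroblast, or positive for the keratins Krt8 and Krt18. The cells came from tumours of C57BL/6 mice and were profiled by droplet sequencing of transcript 3′ ends, with 1 library from WT mice and 1 from Cdh5-cre Myct1 fl/fl mice, called the Myct1 knockout here. The sample label writes the driver as Cdh-cre. Cre under the Cdh5 promoter acts in endothelial cells and in any other cell that has used that promoter, which mural cells, fibroblasts and epithelial cells are not known for. Each library pooled tumours of 4 mice, and the sources used here give neither the floxed exon nor the tumour model nor the ages.

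Peroxiredoxins reduce hydrogen peroxide and organic peroxides with a reactive cysteine, which most of them restore through thioredoxin. Glutathione peroxidases draw their electrons from glutathione or protein thiols, and several of them carry selenocysteine at the active site. Hydrogen peroxide is both a damaging oxidant and a signal in blood vessel cells and in tumours, where these enzymes limit how far and how long it acts.

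With 1 library a genotype there was no replicate, so no test was made, and a difference between the libraries cannot be told apart from one between the genotypes. Levels are in CPM, UMIs per 1000000 of the class sum, and the bracketed ranges are exact 95% intervals that cover counting error only, not mice or libraries. A gene was called higher or lower where the knockout was at least 1.5-fold above or below WT and the interval of the ratio excluded no difference. All 9 members held at least 20 UMIs over both libraries in every class, the minimum for a gene to be counted.

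The WT library held 10880 barcodes and 115519153 UMIs, and the knockout library 10700 barcodes and 145331950 UMIs. After filtering, 7915 WT and 8145 knockout cells remained. The gates took 526 WT and 293 knockout endothelial cells, 95 and 26 mural cells, 2801 and 138 fibroblasts, and 3491 and 6530 Krt8/Krt18 positive cells. The labels name endothelial cells as the source, whereas the endothelial gate held 6.65% of the filtered WT cells and 3.60% of the knockout cells. The 14 endothelial markers summed to 13428 CPM in the WT endothelial gate and 9914 CPM in the knockout one, with none at 0. In the keratin-positive gate the non-keratin epithelial markers Epcam, Cdh1 and Cldn7 summed to 6.86 CPM in WT and 1.18 CPM in the knockout. Cldn7 is not listed in the knockout table. The epithelial keratin Krt14 was at 2.28 CPM in WT and 2.38 CPM in the knockout there. The class is therefore named only by Krt8 and Krt18. Myct1 was at 244 CPM (229 to 260) in WT endothelial cells and is not listed in the knockout table, where every listed gene reached 4 UMIs in some barcode.

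The libraries had 218 barcodes in common. Of the 138 knockout fibroblasts, 44 carried such a barcode, and 37 of these barcodes were gated as fibroblasts in WT too. They were shallow, with a median of 557 UMIs, and gave 1.89% of the knockout fibroblast UMIs. Shared barcodes were carried by 4 knockout endothelial cells, 0 mural cells and 38 keratin-positive cells. Fibroblast values are given below with and without them. The fibroblasts of the 2 libraries were also spread over the clusters in different shares. Of the WT gate, 67.0% of cells were in cluster 0 and 20.3% in cluster 10, and of the knockout gate 18.1% and 45.7%. Another 4.93% and 33.3% were in cluster 14, whose median depth was 645 and 555.5 UMIs. Over the whole gate Pi16, a marker of adventitial fibroblasts, was at 2814 CPM in WT and 458 CPM in the knockout, Dpt at 1852 and 506 CPM, Clec3b at 740 and 205 CPM, and the contractile gene Acta2 at 281 and 867 CPM. Member values are therefore also given within cluster 10, which held the most knockout fibroblasts (570 WT and 63 knockout cells), and where Pi16 was still at 290 and 19.8 CPM.

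RNA of the keratin-positive cells was also present in the other gates: their Krt8 and Krt18 level was 0.768% (endothelial), 0.617% (mural) and 1.21% (fibroblast) of the keratin-positive level in WT, and 2.46%, 10.7% and 5.50% in the knockout.

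Sequence upstream of 3 of the 4 members that were called higher in every class is printed below, to show the DNA ahead of genes that moved together. RefSeq start sites were found for 8 of the 9 members (build GRCm38.p6), and Prdx6 had no entry. A window of 250 bases before to 50 after each start was searched on both strands for TGACNNNGC, the core of the antioxidant response element, the site bound by the oxidative stress factor Nrf2. It occurred in 12.4% of all 32851 windows of the same length. Among the members, only the Prdx1 window held it, on the minus strand, with its leftmost base 133 bases before the start. The capitals mark that match, which reads TGACTCAGC on the other strand and also contains the AP-1 word TGACTCA. The stretches run 5′ to 3′ on the strand of the gene, stop at the first base of the annotated gene, and lie at chr4:116685349-116685543 (plus strand, 195 bases), chr8:84969372-84969586 (plus strand, 215 bases) and chr13:113046411-113046638 (minus strand, 228 bases).

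Prdx1: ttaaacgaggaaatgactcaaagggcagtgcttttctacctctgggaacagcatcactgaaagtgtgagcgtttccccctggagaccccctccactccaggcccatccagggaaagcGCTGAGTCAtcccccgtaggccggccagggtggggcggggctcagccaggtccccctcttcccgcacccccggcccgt
Prdx2: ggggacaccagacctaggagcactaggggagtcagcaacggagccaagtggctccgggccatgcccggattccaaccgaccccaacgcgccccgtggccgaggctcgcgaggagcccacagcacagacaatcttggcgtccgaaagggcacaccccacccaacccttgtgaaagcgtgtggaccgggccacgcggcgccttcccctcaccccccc
Gpx8: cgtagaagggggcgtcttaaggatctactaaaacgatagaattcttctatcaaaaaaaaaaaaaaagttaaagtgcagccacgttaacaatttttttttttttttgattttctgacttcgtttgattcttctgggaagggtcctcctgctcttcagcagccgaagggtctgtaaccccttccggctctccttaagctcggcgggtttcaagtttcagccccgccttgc

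A match is a description of the letters, not evidence of binding, and the windows of Prdx2, Gpx8 and the other members say only that these letters were not in them. The 4th gene called in every class, Prdx4, has a RefSeq start inside its longer annotated gene and is not printed.

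Prdx1, Prdx2, Prdx4 and Gpx8 were called higher in the knockout library in all 4 classes, and Gpx1 and Gpx4 in none. In endothelial cells 5 members were called higher and 0 lower, where 10.3% of the 8284 genes counted were higher and 35.5% lower. In mural cells 5 were higher and 1 lower (6.38% and 19.3% of 6035 genes). In fibroblasts 5 were higher and 0 lower (15.2% and 18.1% of 8762 genes), and 3 of these, Prdx2, Gpx8 and Mgst3, were also higher within fibroblast cluster 10. In keratin-positive cells 4 were higher and 0 lower (5.31% and 18% of 8784 genes). The median log2 ratio of the 9 members was 0.74, 0.68, 0.59 and 0.50 in these classes in that order, and that of all genes counted was −0.36, −0.35, −0.08 and −0.24. With the scaling by TMM, 21.5% of endothelial genes were higher and 16.8% lower, and 7 members were higher. Subtracting the keratin-positive class's log2 ratio left 1 member called higher in each of the other classes. The shares of all genes under this subtraction and within cluster 10 are not given here.

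**Figure D1:**
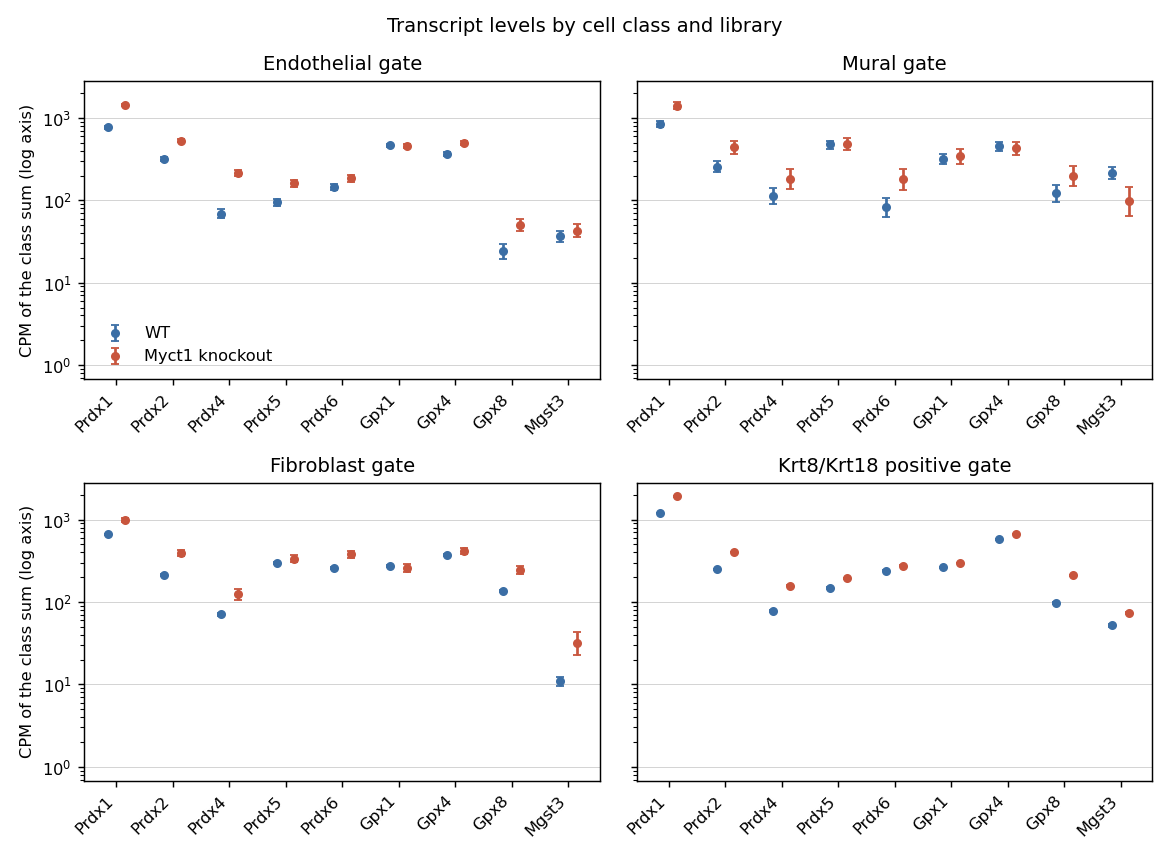
Level of each member (CPM of the class sum, log axis) in WT and Myct1 knockout cells of each gate, with exact 95% counting intervals. Each point is 1 library. Prdx4 in the endothelial gate stands at 69.0 CPM in WT and 212 CPM in the knockout.

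The cytosolic peroxiredoxins come first. Prdx1 is an abundant enzyme that removes hydrogen peroxide and can act as a chaperone when overoxidised. In endothelial cells it stood at 767 CPM (740 to 795) in WT and 1448 CPM (1402 to 1495) in the knockout, a log2 ratio of 0.92 (0.85 to 0.99). In mural cells it stood at 851 CPM (782 to 924) and 1411 CPM (1274 to 1560), a log2 ratio of 0.73 (0.54 to 0.92). In fibroblasts it stood at 661 CPM (651 to 671) and 996 CPM (943 to 1051). In each of these classes the 2 intervals were apart. The fibroblast log2 ratio of 0.59 (0.51 to 0.67) was just over the 1.5-fold limit. It was 0.60 without the shared barcodes. It missed the limit as a mean over cells (0.35), with doublets kept (0.58), under a stricter gate (0.55), within fibroblast cluster 10 (0.57) and after subtraction of the keratin-positive profile scaled to the keratins left (0.53). Keratin-positive cells had the highest Prdx1 level of the 4 classes in both libraries, at 1204 CPM (1195 to 1214) in WT and 1916 CPM (1908 to 1924) in the knockout, a log2 ratio of 0.67 (0.66 to 0.68).

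Prdx2, a close relative of Prdx1 that is very abundant in red cells, was highest in endothelial cells in both libraries. Its level there was 319 CPM (302 to 337) in WT and 531 CPM (504 to 560) in the knockout, a log2 ratio of 0.74 (0.63 to 0.85). It was 257 CPM (220 to 299) and 441 CPM (366 to 527) in mural cells, a log2 ratio of 0.78 (0.43 to 1.12) that was 0.42 (−0.24 to 1.03) and no call under the stricter gate. It was 214 CPM (208 to 220) and 395 CPM (362 to 431) in fibroblasts, with a log2 ratio of 0.89 (0.75 to 1.02), of 0.89 without the shared barcodes and of 0.65 (0.49 to 0.80) within cluster 10. In keratin-positive cells it was 249 CPM (245 to 253) and 404 CPM (401 to 408), a log2 ratio of 0.70 (0.67 to 0.73). The WT and knockout intervals were apart in every class, and the 4 ratios lay close together. The red cell list (4 haemoglobin genes and Alas2) ran the other way in endothelial cells, at 543 CPM in WT and 3.79 CPM in the knockout, whose table lists 4 of the 5 genes and where 2 of these were at 0. In keratin-positive cells that list was at 172 and 7.45 CPM, and in fibroblasts at 58.7 and 160 CPM. Its part in the Prdx2 values was not tested.

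Prdx6, the peroxiredoxin with a single active cysteine and a phospholipase activity that acts on oxidised membrane lipids, had its highest level in fibroblasts in both libraries. There it was at 262 CPM (255 to 268) in WT and 378 CPM (345 to 413) in the knockout, a log2 ratio of 0.53 (0.40 to 0.66) that missed the 1.5-fold limit. Without the shared barcodes that ratio was 0.55. It was called under the stricter gate, at 0.70, and was 0.00 (−0.16 to 0.15) within cluster 10, so its fibroblast value turned on which cells were summed. In endothelial cells it was at 147 CPM (135 to 160) and 185 CPM (169 to 202), a log2 ratio of 0.33 (0.15 to 0.51). In keratin-positive cells it was at 241 CPM (237 to 245) and 277 CPM (274 to 280), a log2 ratio of 0.20 (0.17 to 0.23). Only in the mural gate was it called higher, at 82.8 CPM (62.4 to 108, 55 UMIs) and 180 CPM (133 to 238, 49 UMIs), a log2 ratio of 1.12 (0.54 to 1.70). That call was lost under the stricter gate, which kept 67 WT and 11 knockout mural cells and gave 0.39 (−0.90 to 1.48), and after thinning to equal depth, at 1.05 (−0.08 to 2.11). Under another scaling (TMM) the endothelial value was called, at 0.67. The mural log2 ratio exceeded the keratin-positive one by 0.92 (0.37 to 1.48).

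Prdx4 is the peroxiredoxin of the endoplasmic reticulum, where it uses hydrogen peroxide to oxidise protein disulfide isomerases during protein folding. Its endothelial level was 69.0 CPM (61.0 to 77.7, 270 UMIs) in WT and 212 CPM (195 to 231, 559 UMIs) in the knockout. The log2 ratio of 1.62 (1.41 to 1.84), or 3.08-fold, was above that of 98.9% of the genes counted in endothelial cells. It was the only member whose endothelial ratio exceeded the keratin-positive one by 1.5-fold or more, by 0.59 (0.38 to 0.81) on the log2 scale. That excess was just over the limit and depended on the cells summed. In cells without cycling UMIs the endothelial and keratin-positive log2 ratios were 1.44 (1.11 to 1.77) and 1.31 (1.21 to 1.40). Without the shared barcodes they were 1.61 and 1.04. In mural cells Prdx4 was at 114 CPM (90.1 to 143) and 184 CPM (136 to 242), a log2 ratio of 0.68 (0.14 to 1.22), with level intervals that overlap. With mural cells taken from clusters that ratio was 0.51 (0.08 to 0.93), which is no call. In fibroblasts it was at 71.2 CPM (68.0 to 74.6) and 125 CPM (107 to 146), a log2 ratio of 0.81 (0.57 to 1.04), or 0.79 without the shared barcodes. The fibroblast call was lost without cycling cells, at 0.53 (0.19 to 0.85), and within cluster 10, at 0.53 (0.25 to 0.80). In keratin-positive cells it was at 76.9 CPM (74.7 to 79.3) and 158 CPM (155 to 160), a log2 ratio of 1.03 (0.99 to 1.08). In WT the 4 classes ran from 69.0 CPM in endothelial to 114 CPM in mural cells, and in the knockout endothelial cells were the highest class.

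Prdx5, a peroxiredoxin of mitochondria, peroxisomes and cytosol, differed between classes more than between libraries. It was highest in mural cells, at 477 CPM (426 to 533) in WT and 485 CPM (406 to 575) in the knockout, a log2 ratio of 0.02 (−0.28 to 0.32). Fibroblasts followed at 296 CPM (290 to 303) and 338 CPM (307 to 371), a log2 ratio of 0.19 (0.05 to 0.33). That ratio was also 0.19 without the shared barcodes, and 0.25 (0.08 to 0.42) within cluster 10. Keratin-positive cells were at 149 CPM (145 to 152) and 194 CPM (191 to 196), a log2 ratio of 0.38 (0.35 to 0.42), or 0.62 and called with the TMM scaling. Endothelial cells were the lowest class, at 94.7 CPM (85.3 to 105) and 161 CPM (146 to 177), and the only one in which it was called higher, with a log2 ratio of 0.76 (0.56 to 0.97). The endothelial ratio exceeded the keratin-positive one by 0.38 (0.18 to 0.58), under the 1.5-fold limit. Mural cells were 5.04-fold above endothelial cells in WT and 3.02-fold in the knockout.

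**Figure D2:**
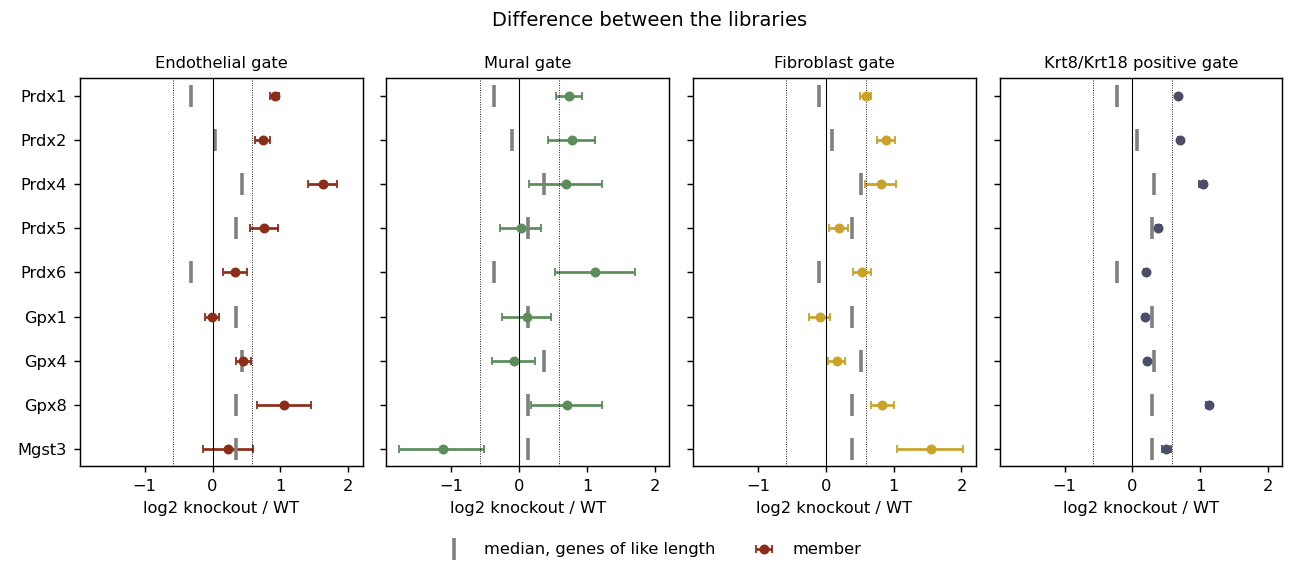
The log2 ratio of knockout over WT for each member and gate, with exact 95% counting intervals. Grey bars are the median ratio of genes of like transcript length, and dotted lines mark a 1.5-fold difference. Prdx1, Prdx2, Prdx4 and Gpx8 lie right of the upper dotted line in every panel.

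The selenocysteine enzymes Gpx1 and Gpx4 were called in no class. Gpx1, the general peroxidase of cytosol and mitochondria, was highest in endothelial cells, at 466 CPM (445 to 488) in WT and 463 CPM (437 to 489) in the knockout, a log2 ratio of −0.01 (−0.12 to 0.10). Its levels were 319 CPM (278 to 365) and 345 CPM (279 to 423) in mural cells, and 276 CPM (269 to 282) and 259 CPM (232 to 288) in fibroblasts. The fibroblast log2 ratio was −0.09 (−0.25 to 0.07), −0.14 without the shared barcodes and 0.07 (−0.14 to 0.27) within cluster 10. In keratin-positive cells it was at 263 CPM (259 to 267) and 299 CPM (296 to 302), a log2 ratio of 0.18 (0.16 to 0.21). The intervals overlapped in all classes except the keratin-positive one. Its endothelial log2 ratio lay 0.35 under the median of genes of like length, and under either of 2 other scalings of the sums it turned positive, at 0.33 and 0.34, without being called.

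Gpx4 reduces lipid peroxides within membranes and is known as the enzyme that holds back ferroptosis, a form of cell death driven by iron. In endothelial cells it was at 365 CPM (346 to 385) in WT and 500 CPM (473 to 528) in the knockout, a log2 ratio of 0.45 (0.34 to 0.56). It was at 452 CPM (402 to 506) and 426 CPM (352 to 511) in mural cells, a log2 ratio of −0.08 (−0.41 to 0.23) that turned to 0.20 and 0.21 under 2 other scalings, and at 372 CPM (364 to 379) and 416 CPM (382 to 452) in fibroblasts. In keratin-positive cells, its highest class in both libraries, it was at 581 CPM (575 to 587) and 673 CPM (669 to 678), a log2 ratio of 0.21 (0.19 to 0.23). The libraries' intervals overlapped in mural cells alone, and no ratio reached 1.5-fold. In fibroblasts the log2 ratio was 0.16 (0.04 to 0.29), also 0.16 without the shared barcodes, and −0.05 (−0.20 to 0.10) within cluster 10. The endothelial value did pass the limit under these scalings, at 0.79 and 0.81.

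Gpx8 is a glutathione peroxidase of the endoplasmic reticulum membrane that carries cysteine in place of selenocysteine. It was low in endothelial cells, at 24.3 CPM (19.6 to 29.7, 95 UMIs) in WT and 50.2 CPM (42.0 to 59.5, 132 UMIs) in the knockout. The endothelial level was 4.00-fold under the next lowest class in WT and 3.95-fold under it in the knockout. Among genes that reached 100 CPM in some class, 3.78% in WT and 6.21% in the knockout were at least 2-fold lower in endothelial cells than in every other class. Its endothelial log2 ratio was 1.05 (0.66 to 1.44), and 0.70 (−0.07 to 1.47) once cells were thinned to equal depth, which is no call. The keratin level left in that gate corresponds to 0.745 CPM of Gpx8 in WT and 5.19 CPM in the knockout, and subtracting these left a log2 ratio of 0.96. In mural cells Gpx8 was at 122 CPM (96.8 to 152) and 198 CPM (149 to 259), with overlapping intervals and a log2 ratio of 0.70 (0.18 to 1.22). In fibroblasts it was at 136 CPM (132 to 141) and 243 CPM (217 to 271), a log2 ratio of 0.83 (0.67 to 1.00) with and without the shared barcodes, and of 0.64 (0.44 to 0.82) within cluster 10. In keratin-positive cells it was at 97.1 CPM (94.5 to 99.7) and 211 CPM (209 to 214), a log2 ratio of 1.12 (1.08 to 1.16) that was above that of 99.2% of the genes counted there.

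Mgst3, a microsomal glutathione transferase that can also reduce lipid hydroperoxides, was the only member with called ratios in both directions. In mural cells it was at 215 CPM (181 to 254, 143 UMIs) in WT and 99.2 CPM (65.4 to 144, 27 UMIs) in the knockout, a log2 ratio of −1.12 (−1.77 to −0.52). In fibroblasts it was at 10.9 CPM (9.69 to 12.3, 283 UMIs) and 32.0 CPM (23.1 to 43.3, 42 UMIs), a log2 ratio of 1.55 (1.05 to 2.02), or 1.55 without the shared barcodes and 1.24 (0.66 to 1.80) within cluster 10. Endothelial cells were at 36.5 CPM (30.8 to 43.0) and 43.0 CPM (35.4 to 51.6), a log2 ratio of 0.23 (−0.13 to 0.60). Keratin-positive cells were at 51.9 CPM and 73.4 CPM (71.9 to 75.0), a log2 ratio of 0.50 (0.44 to 0.56) that was called under the TMM scaling, at 0.73. The WT and knockout intervals were apart in all classes but the endothelial one.

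In WT, Mgst3 was 4.15-fold higher in mural cells than in the next class and 3.34-fold lower in fibroblasts than in any other class, where 5.17% and 3.37% of genes reaching 100 CPM passed 2-fold in those directions. In the knockout its mural level was 1.35-fold above the next class. The mural call was lost under the stricter gate, at −0.51 (−1.55 to 0.38), and after thinning, at −0.82 (−1.96 to 0.16). The fibroblast markers within the mural gate summed to 10198 CPM in WT and 3963 CPM in the knockout, and the keratins to 8.91 and 183 CPM. Their part in the Mgst3 values was not tested.

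The share of cells holding a UMI moved with these levels once every cell was thinned to 3000 UMIs and shallower cells were left out. Prdx4 was found in 18.8% (15.5 to 22.6) of 494 thinned WT endothelial cells and 42.5% (36.6 to 48.6) of 275 knockout ones. Unthinned, the shares were 34.8% and 63.5% at median depths of 6413.5 and 7398 UMIs. Prdx2 was found in 56.9% (52.4 to 61.3) and 79.6% (74.4 to 84.2) of the thinned endothelial cells, with unthinned shares of 77.4% and 93.9%. Gpx1 was found in 73.5% (69.4 to 77.3) and 74.2% (68.6 to 79.3), with unthinned shares of 88.2% and 89.4%. The Prdx4 and Prdx2 shares were higher in the knockout with intervals apart, while those of Gpx1 overlapped. Gpx8 was found in 6.48% (4.47 to 9.02) and 10.5% (7.18 to 14.8) of thinned endothelial cells (14.1% and 27.6% unthinned), intervals that overlap, and in 22.5% (21.1 to 24.0) of 3368 and 44.1% (42.9 to 45.3) of 6425 keratin-positive cells (62.2% and 87.3% unthinned, at median depths of 15924 and 16784). No class is known to lack these enzymes, so no class served as a blank. Per thinned cell, the median Prdx1 count in endothelial cells was 2 UMIs in WT (10th to 90th percentile 0 to 5) and 4 in the knockout (1 to 8).

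**Figure D3:**
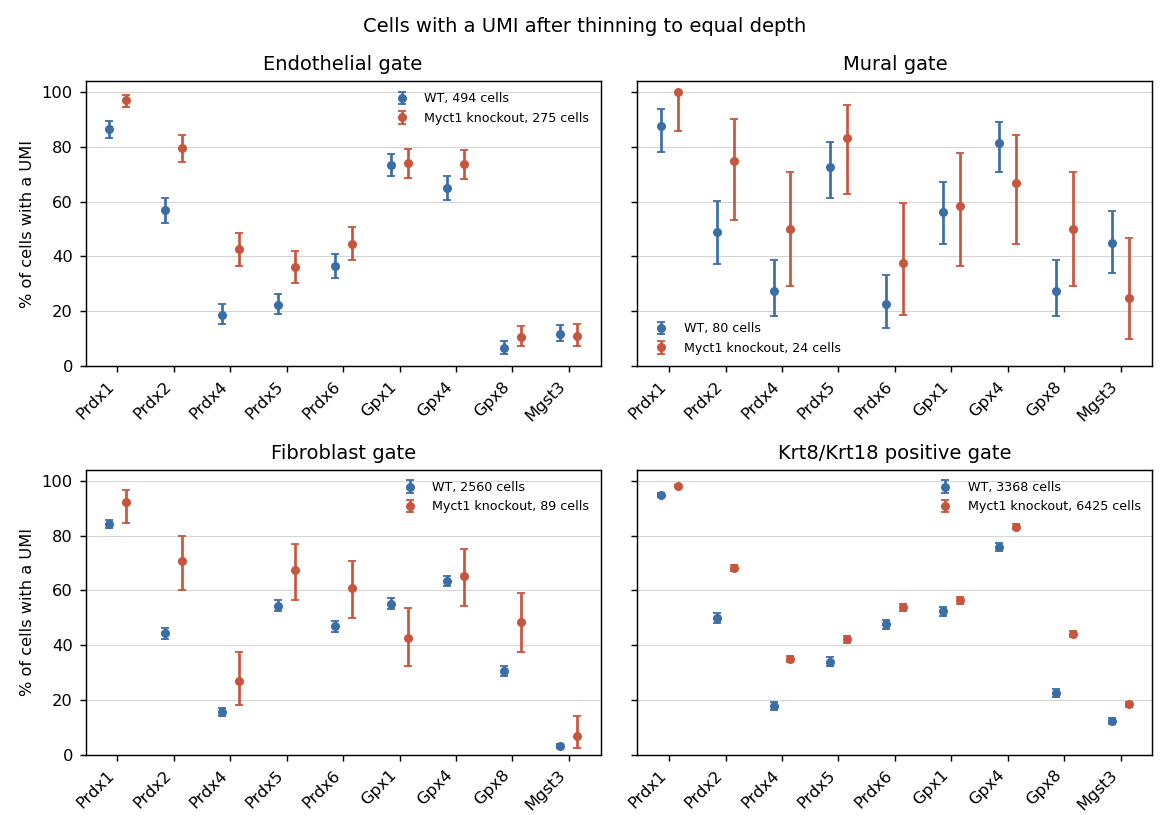
Percent of cells with at least 1 UMI of each member after thinning every cell to 3000 UMIs, with exact 95% intervals, by gate and library. The Prdx4 share of endothelial cells is 18.8% in WT and 42.5% in the knockout, whereas both Gpx1 shares are near each other.

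Genes with short transcripts had higher ratios than genes with long ones in these libraries. In endothelial cells the 629 genes shorter than 1000 bases had a median log2 ratio of 0.43, and the 442 genes of 8000 bases upward one of −0.83. The members' transcripts ran from 959 bases (Gpx4) to 2387 bases (Prdx6). Prdx1 (2294 bases) and Prdx6 lay in the bin of 2000 to 3000 bases, whose median log2 ratio was −0.32 in endothelial cells. Measured against genes of like length, Prdx1 and Prdx2 were called higher in all 4 classes. Prdx4 and Gpx8 were called in endothelial and keratin-positive cells, at 1.20 and 0.71 above the length median in the first and 0.72 and 0.83 in the second. In mural cells Prdx4 was 0.31 (−0.23 to 0.85) and Gpx8 0.57 (0.04 to 1.08) above it, and in fibroblasts 0.30 (0.06 to 0.53) and 0.46 (0.29 to 0.62), so these 4 calls were lost. Prdx5 lost its endothelial call at 0.42 (0.22 to 0.63). Prdx6 gained calls in endothelial cells, at 0.65 (0.47 to 0.82), and in fibroblasts, at 0.63 (0.49 to 0.76). The cause of the trend with length was not tested.

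**Figure D4:**
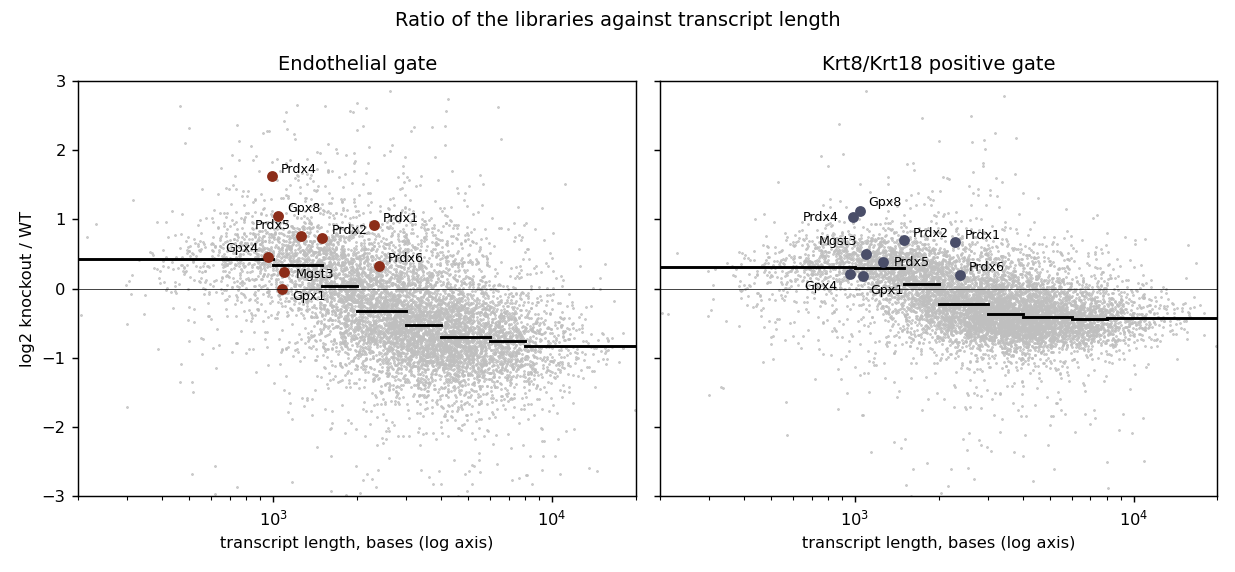
The log2 ratio of knockout over WT against transcript length (bases, log axis) in the endothelial and Krt8/Krt18 positive gates. Grey dots are genes with at least 20 UMIs, black bars the medians of length bins, large dots the members, and genes beyond 3 on the ratio axis are not drawn. Prdx1, at 2294 bases, lies above the bar for its length in both panels.

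Within the keratin-positive class, cells were compared cluster by cluster in the 7 clusters that held at least 50 gated cells of each library. Clusters 2, 8 and 11 were left out, with under 50 gated WT cells each. They held 1562, 734 and 528 of the 6530 gated knockout cells, which the comparison therefore does not cover. Cluster 13, with 250 gated WT cells and under 50 knockout ones, was left out too. So was cluster 19, with 24 WT and 5 knockout cells after filtering. The clusters were built from all genes, so levels between them are descriptions. The log2 ratio was above 0 in 7 of 7 clusters for Prdx1, Prdx2, Prdx4, Prdx5 and Gpx8, in 6 for Prdx6 and Mgst3, in 4 for Gpx1 and in 3 for Gpx4. Gpx8 was called higher in 6 clusters, Prdx4 in 4, Prdx1 in 3, Mgst3 in 2, Prdx2 and Prdx5 in 1 each, and the other members in 0. The share of all genes in single clusters is not given here. The log2 ratio of Gpx8 ran from 0.47 to 1.30 over the clusters, that of Prdx4 from 0.47 to 1.21, that of Prdx1 from 0.13 to 0.63 and that of Prdx2 from 0.15 to 0.63. With the clusters weighted equally, Gpx8 stood at 0.83 and Prdx4 at 0.75, while Prdx1 at 0.44 and Prdx2 at 0.43 fell under the 1.5-fold limit. Every member had a lower log2 ratio with the clusters weighted equally than over the whole class. The whole-class values were 1.12 for Gpx8, 1.03 for Prdx4, 0.67 for Prdx1 and 0.70 for Prdx2.

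Cluster 3, led by Yam1, Itpk1, Adm and the stress factor Ddit3, held 1089 WT and 306 knockout cells and was low for most members. Prdx4 there was at 33.8 CPM in WT and 48.3 CPM in the knockout. Its highest levels were 177 and 257 CPM in cluster 6, led by the mitotic genes Top2a, Ube2c and Cdk1. Mgst3 spanned the widest range of the members in WT, from 9.34 CPM in cluster 3 to 225 CPM in cluster 13, or 24.1-fold over the 8 clusters with enough WT cells. Prdx5 spanned the narrowest range in both libraries, 1.56-fold in WT and 1.83-fold in the knockout. Gpx1 was lower in the knockout in cluster 7, at 415 and 294 CPM, a log2 ratio of −0.50 (−0.72 to −0.28). Haemoglobin genes led that cluster (559 WT and 114 knockout cells), and their part in its Gpx1 value was not tested.

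**Figure D5:**
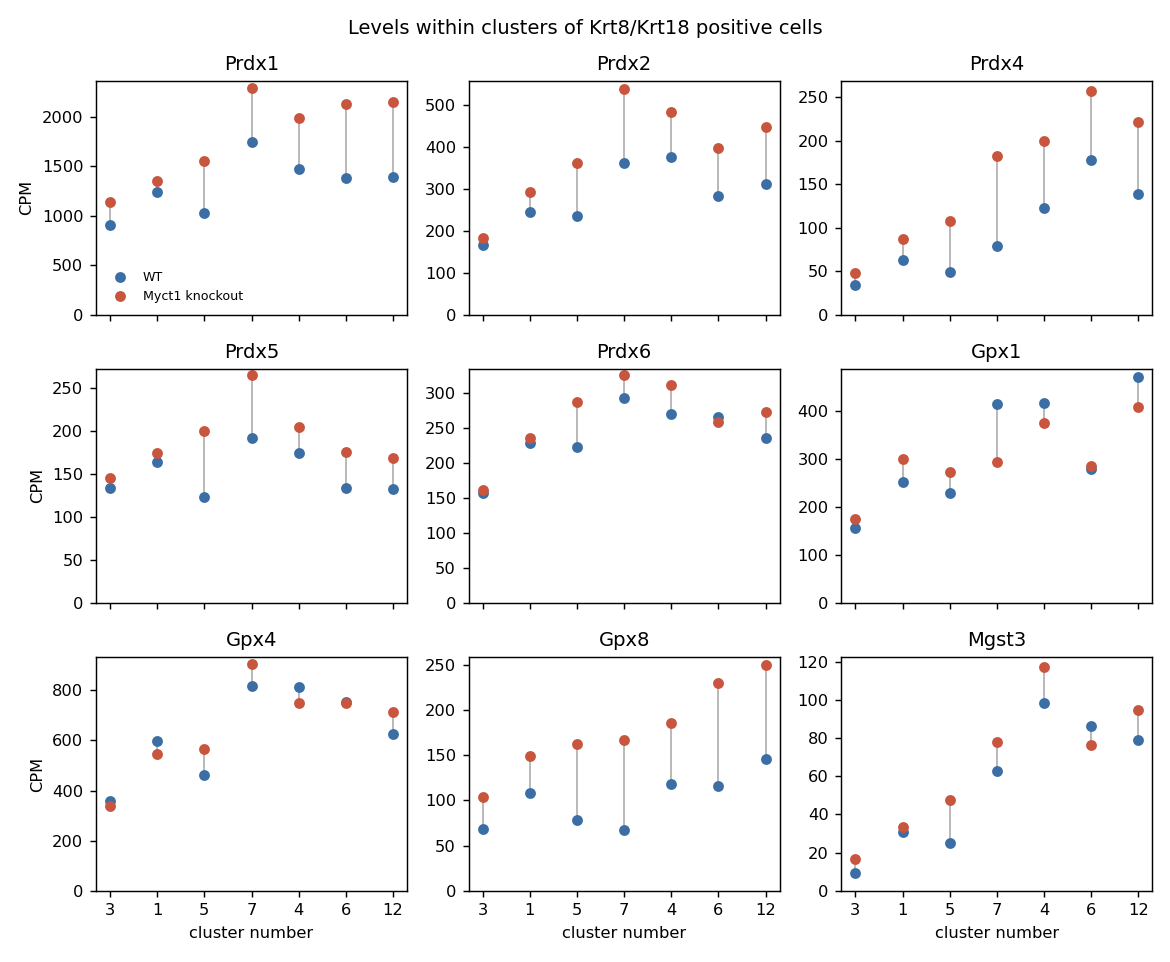
Member levels (CPM, axes from 0) in WT and knockout cells of 7 clusters of Krt8/Krt18 positive cells, with a grey line joining the libraries. In cluster 6 Prdx4 stands at 177 CPM in WT and 257 CPM in the knockout, its highest values in the plot.

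Proliferation moved with some members. UMIs of 12 cycling genes were present in 122 of 526 WT and 134 of 293 knockout endothelial cells. Prdx4 was at 55.4 CPM in WT and 151 CPM in knockout endothelial cells without such UMIs, and at 124 and 310 CPM in those with 3 or more, so both the cycling state and the library went with its level. The log2 ratio of Prdx4 was 1.44 (1.11 to 1.77) in the first set and 1.32 (0.92 to 1.75) in the second. Prdx1 also kept its call, with endothelial log2 ratios of 0.90 (0.80 to 1.01) without and 0.66 (0.51 to 0.80) with 3 or more cycling UMIs. The other 3 endothelial calls were lost in the cells with 3 or more, which numbered 41 in WT and 74 in the knockout. There Prdx2 was at 0.33 (0.09 to 0.58), Prdx5 at 0.53 (0.04 to 1.05) and Gpx8 at 0.86 (−0.02 to 1.83). In keratin-positive cells with 3 or more cycling UMIs, Prdx1 and Prdx2 were at 0.54 and 0.45, under 1.5-fold, and Prdx4 and Gpx8 at 0.64 and 0.92. Without cycling UMIs these 4 were at 0.75, 0.86, 1.31 and 1.28. Mgst3 in keratin-positive cells was at 0.77 (0.65 to 0.88) without and 0.02 (−0.08 to 0.12) with cycling UMIs.

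Other members of the families did not all share this direction. Gpx3, the secreted glutathione peroxidase of plasma and matrix, was called lower in every class. It stood at 2000 CPM (1983 to 2018) in WT and 683 CPM (639 to 729) in knockout fibroblasts, a log2 ratio of −1.55 (−1.65 to −1.46). Within fibroblast cluster 10 the ratio was −1.11 (−1.30 to −0.93), and the lower Pi16, Dpt and Clec3b levels given above went with it. Their part in the Gpx3 value was not tested. In endothelial cells it was at 60.3 CPM (52.8 to 68.5) and 14.8 CPM (10.5 to 20.3), a log2 ratio of −2.02 (−2.55 to −1.53). Gpx3 was at 1225 CPM in WT and 283 CPM in the knockout in mural cells. In keratin-positive cells it was at 6.66 and 0.119 CPM (373 and 14 UMIs). The 13 fibroblast markers in the endothelial gate summed to 1920 CPM in WT and 570 CPM in the knockout. In the mural gate they summed to 10198 and 3963 CPM. Their part in the Gpx3 values of these gates was not tested. Mgst1, the relative of Mgst3, was highest in fibroblasts, at 421 CPM in WT and 248 CPM in the knockout, a log2 ratio of −0.76 (−0.93 to −0.60), or −0.60 (−0.83 to −0.38) within cluster 10. It was called lower in the other classes too, where it was low: 15.8 and 2.28 CPM in endothelial cells, 20 UMIs and 1 UMI in mural cells, and 4.61 and 2.20 CPM in keratin-positive cells. The fibroblast markers in these gates were lower in the knockout as well, at 189 and 111 CPM in the keratin-positive gate, and their part in the Mgst1 values was not tested. The mitochondrial Prdx3 was called in no class, with log2 ratios from −0.05 in fibroblasts to 0.49 in mural cells.

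The thioredoxin system restores most peroxiredoxins. Of its 12 listed genes in endothelial cells, 4 were called higher and 2 lower, beside 10.3% and 35.5% of all genes. Thioredoxin itself, Txn1, was at 354 CPM (336 to 374) in WT and 713 CPM (681 to 746) in the knockout, a log2 ratio of 1.01 (0.91 to 1.11). The thioredoxin inhibitor Txnip was at 194 CPM (181 to 209) and 68.4 CPM (58.8 to 79.2), a log2 ratio of −1.51 (−1.75 to −1.27). Txnip was called lower and the thioredoxin-like Txnl1 higher in all 4 classes. In keratin-positive cells 1 of the 12 genes was higher and 2 were lower, in fibroblasts 5 and 1 of 12, and in mural cells 2 and 1 of 8. The shares of all genes in these classes were 5.31% and 18%, 15.2% and 18.1%, and 6.38% and 19.3%.

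The next list holds the genes that make and recycle glutathione. Of 15 in endothelial cells 2 were called higher and 7 lower, beside 10.3% and 35.5% of all genes. Among those lower was Gclc, the catalytic subunit of the rate-limiting enzyme, at 52.4 CPM in WT and 24.3 CPM (18.7 to 31.1) in the knockout. In keratin-positive cells 0 of 15 were higher and 4 lower, in fibroblasts 4 and 3 of 15, and in mural cells 1 and 2 of 10. Of the transferases and Mgst3 relatives, 3 of 8 were higher and 3 lower in endothelial cells, and Gstp1, a cytosolic transferase, was called higher in all 4 classes. Among 13 other antioxidant enzymes in endothelial cells, 3 were higher and 4 lower. The iron store Fth1 had an endothelial log2 ratio of 0.76 (0.71 to 0.81) and the superoxide dismutase Sod1 one of −0.81. Nrf2 and its regulators had 0 of 9 genes called higher in any class, and 1 lower in endothelial cells, mural cells and fibroblasts and 2 in keratin-positive cells. Of all genes, 10.3%, 6.38%, 15.2% and 5.31% were higher in endothelial, mural, fibroblast and keratin-positive cells, and 35.5%, 19.3%, 18.1% and 18% lower. At those shares, 0 higher of 9 genes is near what all genes gave.

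Most partners of Prdx4 and Gpx8 in the oxidative folding of the endoplasmic reticulum were called in neither direction. In endothelial cells 3 of 14 were higher and 3 lower, beside 10.3% and 35.5% of all genes. The oxidase Ero1l, which makes hydrogen peroxide as it folds proteins, was higher there, at 65.4 CPM (57.6 to 73.9) in WT and 120 CPM (107 to 134) in the knockout, a log2 ratio of 0.87 (0.63 to 1.12). In keratin-positive cells Ero1l was lower, at 795 CPM (788 to 802) and 366 CPM (362 to 369), a log2 ratio of −1.12 (−1.14 to −1.10), while Prdx4 and Gpx8 were higher in both classes. In keratin-positive cells 0 of the 14 were higher and 1 lower, in fibroblasts 3 and 1, and in mural cells 1 and 2. Of all genes, 5.31% and 18%, 15.2% and 18.1%, and 6.38% and 19.3% were higher and lower in these classes. For the selenoprotein synthesis genes that Gpx1 and Gpx4 depend on, 1 of 6 was higher and 2 lower in endothelial cells and 0 of 6 were called in keratin-positive cells. Of the ferroptosis partners of Gpx4, 0 were higher in any class, and 2 of 5 were lower in endothelial cells, the lipid-remodelling enzymes Lpcat3 and Acsl4, where 35.5% of all genes were lower.

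Across the 8 sums of 4 classes and 2 libraries, the genes whose log2(CPM + 10) followed a member most closely were taken from 2865 genes reaching 100 CPM. These sums share 2 libraries and differ in depth, so the correlations are descriptions. Pearson's r was 0.99 for Prdx2 with Vps29 and 0.98 for Prdx1 with Polr1d. It was 0.97 for Prdx4 with Ube2m, 0.98 for Gpx8 with Cd63 and 0.98 for Gpx1 with the endothelial genes Grap and Gpihbp1. Mgst3 had the weakest best match, Ajuba, at 0.92. Among the members themselves, Prdx2 and Prdx4 were the most alike pair, at 0.86, and Gpx1 and Gpx8 the most opposed, at −0.79.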

How the data were processed

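Single-cell 3′ transcriptomes of 1 WT and 1 Myct1 knockout tumour library were used. The authors deposited raw UMI counts per gene and barcode, made with Cell Ranger 2.1.1 and mm10 per the submitters' processing notes. The sources used here do not give the strand setting or the annotation behind these counts. Every listed gene reached 4 UMIs in some barcode of its table, so the tables hold only part of the genes and symbols in both were used (9127, with 1376 and 536 in 1 table only).

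Barcodes under 200 genes (1106 WT, 1955 knockout), over 10% mitochondrial UMIs (1654, 523) or with a doublet score over 0.3 from simulated pairs (205, 77) were left out. A stromal cell needed at least 7 markers of its class (of 14 endothelial, 12 mural or 13 fibroblast markers), and limits on other markers, set on the marker distributions. Counts were summed per class and library; levels are per 1000000 UMIs of the shared genes, and of all listed genes for marker lists. Ratios carry exact conditional binomial intervals, levels exact Poisson ones and shares Clopper-Pearson ones, at 95%. Differences between 2 ratios carry a normal interval from the 4 counts. The ratio steps were tested on simulated data. Transcript lengths came from GENCODE for 99.6% of the shared genes, 313 of them through older symbols. Processed copies of Prdx2, Prdx6 and Gpx4 and the gene Prdx6b are annotated, and reads shared with them could change those members' counts.

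All 9 members were named in every class, and up to 3 genes per partner list and direction by the interval bound nearest 0; examples printed are from these. The members and lists were chosen with earlier results of these data known. Alternatives were other scalings (TMM of edgeR 4.0.16 and median of ratios of DESeq2 1.42.0, used for scaling only), length, means over cells, thinning, filters, gates, clusters (scanpy 1.11.5, Leiden resolution 1), cycling cells and free RNA. Python 3.11.15, numpy 2.4.6, scipy 1.17.1 and R 4.3.3 were used.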

Additional observations from a re-analysis of the deposited data

Results flagged for a closer look

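Mgst3 moved in opposite directions in 2 stromal classes: its log2 ratio of knockout over WT was −1.12 in mural cells and 1.55 in fibroblasts. The difference between the classes was not tested, because each genotype had 1 library. The mural value rests on 27 knockout UMIs in 26 cells and the fibroblast value on 42 knockout UMIs in 138 cells. Under the stricter gate the mural value was −0.51 (−1.55 to 0.38) and the fibroblast value 1.89. With classes taken from clusters they were −1.09 and 1.86. Within fibroblast cluster 10 the fibroblast value was 1.24.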

How the results depend on the processing

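Intervals cover counting error only, and with 1 library a genotype no replicate could be left out. No paired analysis was possible because each genotype had 1 library. Members called higher numbered 5 in endothelial cells, 8 with median-of-ratios scaling (22.1% of all genes) and 1 relative to the Krt8/Krt18 class. They numbered 5 in mural cells, 3 relative to genes of like length (9.81% of all genes), 3 under the stricter gate and 1 relative to the Krt8/Krt18 class. The 1 mural member called lower became 0 after thinning and 0 under the stricter gate. In fibroblasts 5 became 3 within cluster 10 and 1 relative to the Krt8/Krt18 class, and in that class 4 became 2 with its clusters weighted equally. For thinning, the stricter gate, cluster 10, the equal weighting and the setting relative to the Krt8/Krt18 class, shares of all genes are not given here. The member counts under these settings therefore cannot be set beside all genes. Relative to the Krt8/Krt18 class, called ratios turned negative for Gpx8 in endothelial cells (−0.073), Prdx4 and Gpx8 in mural cells (−0.35 and −0.42), and Prdx1, Prdx4 and Gpx8 in fibroblasts (−0.078, −0.22 and −0.29). Of these, only the interval of Gpx8 in fibroblasts (−0.46 to −0.12) excluded 0. The setting relative to the Krt8/Krt18 class, the shared barcodes, fibroblast cluster 10 and the equal weighting were chosen after seeing the data. TMM scaling raised every log2 ratio by 0.34, 0.29, 0.05 and 0.23 in endothelial, mural, fibroblast and keratin-positive cells. In endothelial cells it changed the genes called higher and lower from 10.3% and 35.5% to 21.5% and 16.8%, in mural cells from 6.38% and 19.3% to 12.7% and 10.9%, and in keratin-positive cells from 5.31% and 18% to 14.4% and 5.94%. Dropping the minimum of 20 UMIs kept each share of called genes within 1.5-fold. The cause of each change was not tested.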
